A study of Mus musculus with 10 samples.

Results

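The 10 genes described here belong to the circadian clock: Arntl, Clock, Per1, Per2, Per3, Cry1, Cry2, Nr1d1, Nr1d2 and its output gene Dbp. They were taken by gene symbol from a table of 47340 genes, each symbol had 1 row, and all 10 were among the 13065 genes that were tested. Islets came from 12-wk-old male mice fed chow, with 1 library per mouse and 5 mice in each group. FL mice carried the floxed Fitm2 gene without Cre and are labelled wild type for genotype, and KO (βFIT2KO) mice carried the floxed gene with a Cre transgene driven by the rat insulin 2 promoter, which is active in β-cells. Fitm2 encodes FIT2, a protein of the endoplasmic reticulum that acts in lipid droplet formation. Islets of mice with the Cre transgene alone are not among these libraries, so Cre and the loss of Fitm2 cannot be told apart. Islets were kept in culture overnight before RNA was extracted, and the hour at which they were isolated is not given in the sources used here.

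The clock is a loop of transcription and feedback that runs in nearly every cell. BMAL1, the product of Arntl, pairs with CLOCK and binds E-box sequences near the Per, Cry, Nr1d and Dbp genes, whose transcription it raises. PER and CRY proteins return to the nucleus and inhibit BMAL1 and CLOCK, while REV-ERBα and REV-ERBβ, the products of Nr1d1 and Nr1d2, repress Arntl. DBP is an output of the loop that binds D-box sequences of other genes. In islets the clock is known to gate insulin secretion across the day.

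Fitm2 was at 16.9, 30.5, 16.5, 37.1 and 15.5 FPKM in FL mice 1 to 5 and at 4.56, 4.30, 7.75, 9.13 and 9.0 FPKM in KO mice 1 to 5. FPKM are fragments mapped to a transcript, scaled to its length and to the size of the library, so they allow levels of different genes to be compared. All KO libraries lay under all FL libraries. No 2 libraries held identical values. Relative depth was estimated as the most common ratio of the low values of FL mouse 1 to those of each library, and set to 1 for FL mouse 1. It ranged from 1 to 2.41 in FL and from 1.51 to 2.05 in KO, and the number of reads behind each value is unknown.

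Of the 10 clock genes, 6 were lower in KO islets and 0 were higher at an adjusted p of at most 0.05 (limma on log2(FPKM + 1), Benjamini-Hochberg adjustment over all tested genes). Among all tested genes 16.5% were lower and 9.05% were higher. The 6 genes were Per1, Per2, Per3, Cry1, Cry2 and Dbp, which include the whole set of Per and Cry repressors. Their mean FPKM fell by 13.2% (Cry1) to 47.5% (Per2). In each of the 6, all KO libraries lay under all FL libraries, a pattern that 12.5% of tested genes shared. Arntl, Clock, Nr1d1 and Nr1d2 did not pass the test and their groups overlapped. The median log2 fold change of the 10 genes was −0.28, and that of all tested genes was −0.06.

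**Figure D1:**
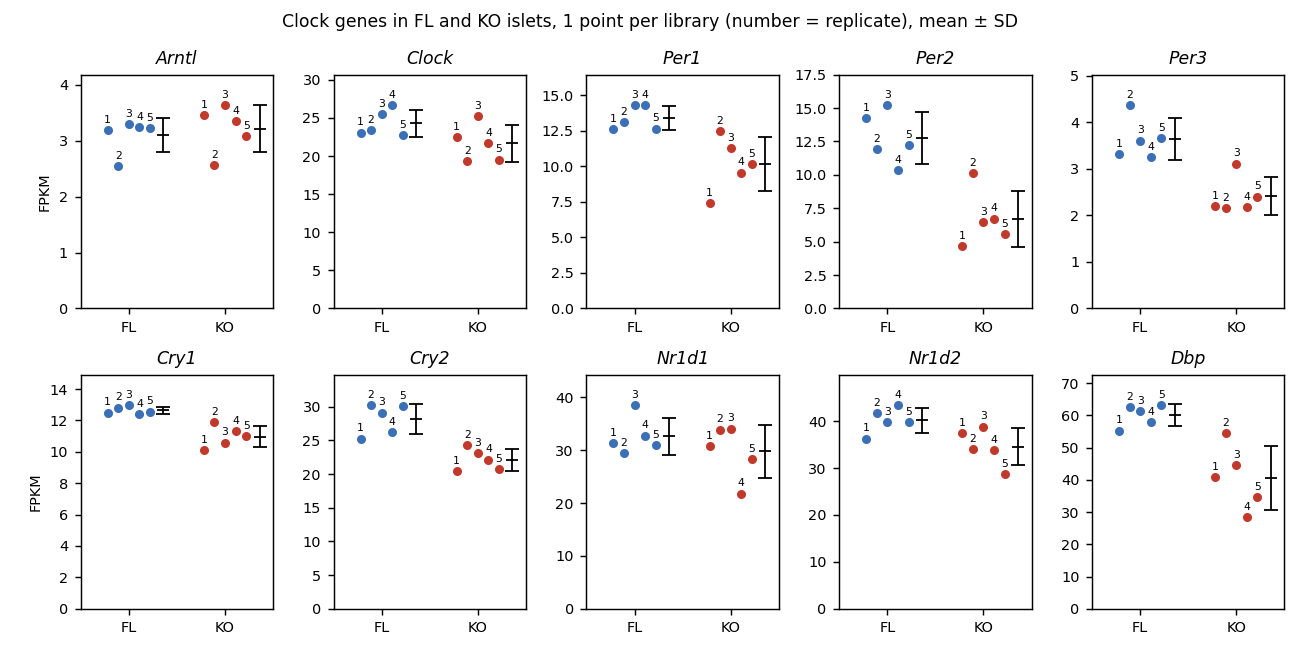
Each panel shows the FPKM of a clock gene in 5 FL (blue) and 5 KO (red) libraries, 1 point per mouse with its replicate number, and the black mark beside the points is the mean with its SD. The groups are apart in Per1, Per2, Per3, Cry1, Cry2 and Dbp and overlap in Arntl, Clock, Nr1d1 and Nr1d2.

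Arntl, which encodes BMAL1, the activating partner of CLOCK, was at 3.18, 2.55, 3.29, 3.24 and 3.23 FPKM in FL mice 1 to 5. In KO mice 1 to 5 it was at 3.46, 2.56, 3.64, 3.35 and 3.08 FPKM. Mouse 2 of each group was the lowest, and the groups overlapped, with KO mice 1, 3 and 4 above the highest FL library. The mean was 3.10 ± 0.308 FPKM for FL mice against 3.22 ± 0.418 FPKM for KO mice (SD, n = 5), and the log2 fold change was 0.04 (95% interval −0.15 to 0.23, adjusted p = 0.782 from limma). The sign of this value turned when FL mouse 2 was left out (−0.012). Clock, which encodes the other partner of the activator, was at 23.1, 23.5, 25.5, 26.7 and 22.7 FPKM in FL and at 22.4, 19.4, 25.3, 21.7 and 19.5 FPKM in KO. KO mouse 3 was within the FL range and the other 4 KO mice were below its lowest library. The log2 fold change of Clock was −0.16 (95% interval −0.33 to 0.01, adjusted p = 0.148 from limma). When KO mouse 3 was left out it was −0.22 and passed (adjusted p = 0.0397 from limma).

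Per2 showed the largest change of the 10 genes. It encodes a PER protein that carries CRY into the repressor complex. Per2 was at 14.3, 11.9, 15.2, 10.4 and 12.2 FPKM in FL mice 1 to 5, and at 4.67, 10.1, 6.48, 6.73 and 5.54 FPKM in KO mice 1 to 5. KO mouse 2 stood close to FL mouse 4, and the other 4 KO libraries were at 6.73 FPKM or less. The mean fell from 12.8 ± 1.95 to 6.71 ± 2.08 FPKM (SD, n = 5). The log2 fold change was −0.87 (95% interval −1.23 to −0.50, adjusted p = 0.00336 from limma), and the exact permutation p was 0.00794, which is the smallest that 5 against 5 mice can give. Per3, the third Per gene, was at 3.32, 4.38, 3.61, 3.25 and 3.67 FPKM in FL and at 2.21, 2.16, 3.12, 2.18 and 2.41 FPKM in KO. Here KO mouse 3, not KO mouse 2, was nearest to FL. Per3 fell by 33.8% of its FL mean (log2 fold change −0.45, SE 0.09, adjusted p = 0.00598 from limma).

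Per1, which responds to acute signals through cAMP as well as to the clock, was at 12.6, 13.1, 14.3, 14.3 and 12.6 FPKM in FL mice 1 to 5. In KO mice 1 to 5 it was at 7.42, 12.5, 11.3, 9.55 and 10.1 FPKM. The gap between the groups was narrow, with KO mouse 2 just under the lowest FL library and KO mouse 1 far below. Per1 fell by 24.1% of its FL mean (log2 fold change −0.38, SE 0.11, adjusted p = 0.0261 from limma). This call was lost when FL mouse 3 (adjusted p = 0.0609), FL mouse 4 (0.0569) or KO mouse 4 (0.0597) was left out of the limma fit, while the log2 fold change stayed between −0.37 and −0.36 in those fits.

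Cry1 and Cry2 encode the cryptochromes, which inhibit BMAL1 and CLOCK directly. Cry1 was at 12.5, 12.8, 13.0, 12.4 and 12.6 FPKM in FL and at 10.1, 11.9, 10.6, 11.3 and 11.0 FPKM in KO. Its FL libraries were closer to each other than those of any other clock gene, with a coefficient of variation (SD over mean) of 1.86%, and its change was small (log2 fold change −0.19, SE 0.05, adjusted p = 0.0146 from limma). The call of Cry1 was lost after upper-quartile rescaling (−0.14, adjusted p = 0.0514), quantile normalization (−0.14, 0.0642) or rescaling to the same sum (−0.15, 0.0746). Cry2 was at 25.3, 30.2, 29.1, 26.3 and 30.1 FPKM in FL and at 20.4, 24.3, 23.1, 22.2 and 20.8 FPKM in KO. All 5 KO libraries were below 25 FPKM and all 5 FL libraries above it. Cry2 fell from 28.2 ± 2.27 to 22.1 ± 1.62 FPKM (SD, n = 5; log2 fold change −0.33, SE 0.07, adjusted p = 0.00447 from limma).

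Of the targets of the activator that are not themselves Per or Cry genes, Dbp passed the test and Nr1d1 and Nr1d2 did not. Dbp was at 55.3, 62.6, 61.3, 57.8 and 63.1 FPKM in FL mice 1 to 5 and at 41.0, 54.5, 44.5, 28.5 and 34.6 FPKM in KO mice 1 to 5. KO mouse 2 was again the highest, just under FL mouse 1, and KO mouse 4 was the lowest. Dbp fell from 60.0 ± 3.36 to 40.6 ± 9.89 FPKM (SD, n = 5; log2 fold change −0.58, 95% interval −0.89 to −0.27, adjusted p = 0.012 from limma). Nr1d1 was at 31.3, 29.5, 38.5, 32.7 and 31.0 FPKM in FL and at 30.8, 33.9, 34.1, 21.8 and 28.3 FPKM in KO. The 3 KO mice with the highest Nr1d1 lay within the FL range and KO mouse 4 was the lowest of all (log2 fold change −0.14, 95% interval −0.40 to 0.12, adjusted p = 0.428 from limma). Without KO mouse 4 the log2 fold change of Nr1d1 was −0.034. Nr1d2 was at 36.3, 41.7, 39.7, 43.4 and 39.8 FPKM in FL and at 37.4, 34.0, 38.8, 33.7 and 28.7 FPKM in KO. KO mice 1 and 3 overlapped with FL, and the log2 fold change of −0.22 (95% interval −0.39 to −0.04) did not pass over all genes (adjusted p = 0.0694 from limma), with an unadjusted exact permutation p of 0.0397. Nr1d2 passed without KO mouse 3 (adjusted p = 0.0372 from limma). Whether the change of Dbp differs from that of Nr1d1 or Nr1d2 was not tested.

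**Figure D2:**
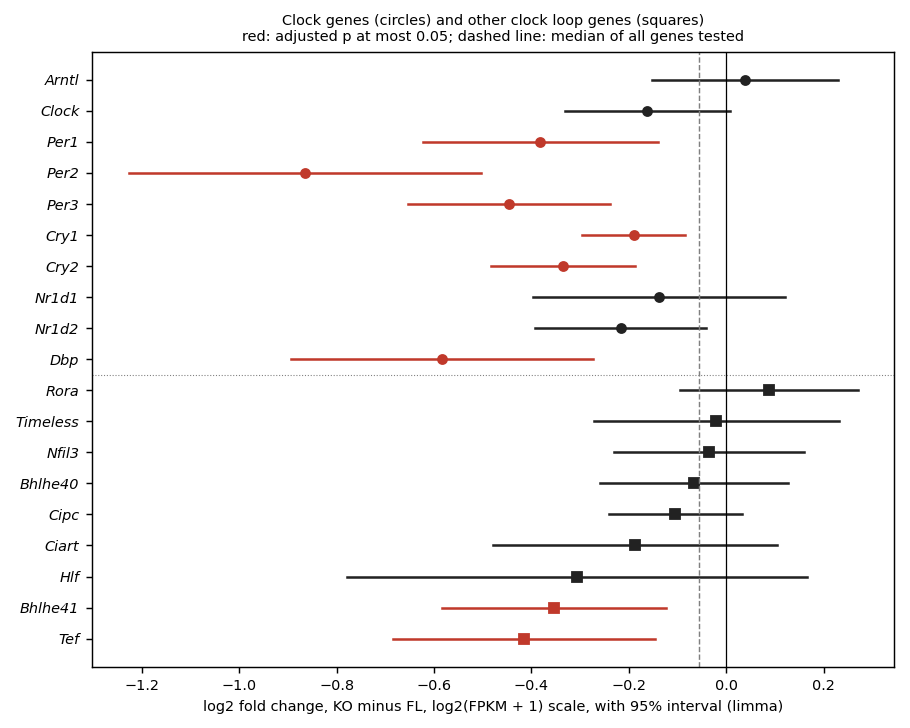
Log2 fold change of KO against FL with its 95% interval from limma on log2(FPKM + 1), for the 10 clock genes (circles) and 9 further genes of the same loops (squares), in red where the adjusted p was at most 0.05. The intervals of Per2 and Dbp reach furthest from 0, and Arntl and Rora are the genes with a value above 0.

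Levels per length were ordered alike in both groups at the top and differently at the bottom. Dbp had the highest FL mean, followed by Nr1d2, Nr1d1, Cry2, Clock, Per1, Per2, Cry1, Per3 and Arntl. In that order the libraries of neighbours were apart between Dbp and Nr1d2, between Clock and Per1 and between Cry1 and Per3, and overlapped elsewhere. In KO islets the order was Dbp, Nr1d2, Nr1d1, Cry2, Clock, Cry1, Per1, Per2, Arntl and Per3, and neighbours were apart only between Clock and Cry1 and between Per2 and Arntl. Arntl was higher than Per3 in all 5 KO libraries and lower in all 5 FL libraries.

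Ratios within a library leave out the scaling of that library. The ratio of Per2 to Arntl, a repressor over the activator, was at 4.48, 4.67, 4.62, 3.19 and 3.78 in FL mice 1 to 5 and at 1.35, 3.96, 1.78, 2.01 and 1.80 in KO mice 1 to 5. KO mouse 2 was within the FL range and the other 4 KO mice were below it. The ratio of Dbp to Arntl had a median of 18.6 in FL (17.4 to 24.5) and of 11.8 in KO (8.52 to 21.3), with KO mouse 2 again within the FL range. The ratio of Per2 to Per1 was 0.959 ± 0.157 in FL and 0.654 ± 0.108 in KO (SD, n = 5), and the ratio of Cry2 to Cry1 was 2.23 ± 0.156 and 2.02 ± 0.109, with groups that overlapped in both. No test was run on the ratios.

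**Figure D3:**
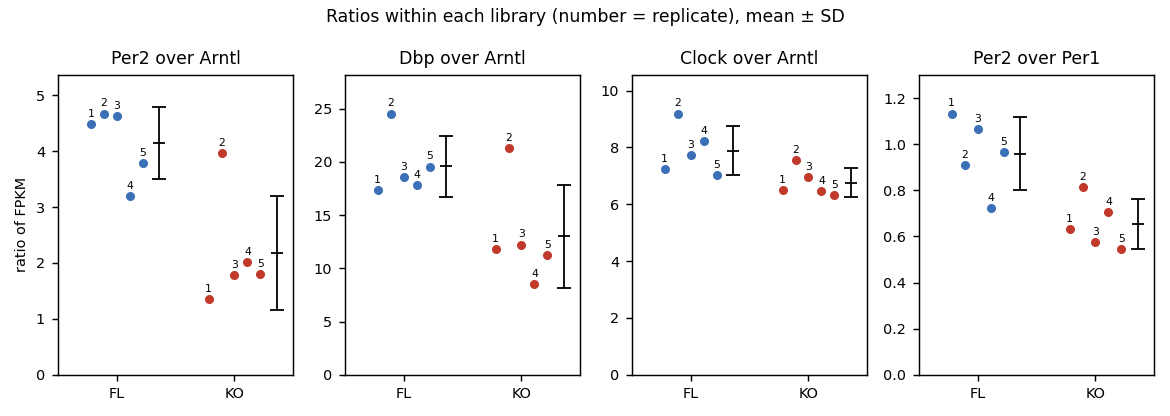
Ratio of the FPKM of named clock genes within each library, for 5 FL (blue) and 5 KO (red) mice with their replicate numbers, and the mean with its SD in black. KO mouse 2 is at 3.96 for Per2 over Arntl and at 21.3 for Dbp over Arntl, both inside the FL range.

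Promoter sequences are shown for the clock genes in which a search of the bases before the start found an element of the loop. A common regulator was not tested. RefSeq windows (GRCm38.p6) from 250 bases before to 50 after an annotated start were found for 9 of the 10 genes, all but Per2. They were searched on both strands for the E-box CACGTG, for its variant CACGTT (the E′-box), for the D-box TTANGTAA and for the ROR element in the forms TAGGTCA and TGGGTCA. None of these letters overlapped with those of another match in the windows of the clock genes. The 250 bases before the start follow, each written 5′ to 3′ on the strand of the gene, with the E-box, E′-box or D-box in capitals.
Per1, chr11:69098699-69098948, plus strand: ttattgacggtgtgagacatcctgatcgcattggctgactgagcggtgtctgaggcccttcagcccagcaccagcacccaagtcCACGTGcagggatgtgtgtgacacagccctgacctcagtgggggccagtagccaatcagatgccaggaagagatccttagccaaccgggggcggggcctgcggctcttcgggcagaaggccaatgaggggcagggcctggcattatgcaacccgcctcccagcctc
Per3, chr4:151044666-151044915, minus strand: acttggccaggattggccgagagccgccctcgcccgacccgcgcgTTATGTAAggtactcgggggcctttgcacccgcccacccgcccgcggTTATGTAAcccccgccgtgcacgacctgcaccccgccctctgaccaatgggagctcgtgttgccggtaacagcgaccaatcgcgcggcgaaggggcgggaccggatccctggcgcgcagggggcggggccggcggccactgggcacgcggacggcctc
Cry1, chr10:85185055-85185304, minus strand: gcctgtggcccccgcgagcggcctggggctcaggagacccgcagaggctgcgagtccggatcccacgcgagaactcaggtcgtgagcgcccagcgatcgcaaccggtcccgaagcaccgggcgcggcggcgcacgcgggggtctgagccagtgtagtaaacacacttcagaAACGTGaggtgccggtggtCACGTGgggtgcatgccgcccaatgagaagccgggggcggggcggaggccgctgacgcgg
Cry2, chr2:92434070-92434319, minus strand: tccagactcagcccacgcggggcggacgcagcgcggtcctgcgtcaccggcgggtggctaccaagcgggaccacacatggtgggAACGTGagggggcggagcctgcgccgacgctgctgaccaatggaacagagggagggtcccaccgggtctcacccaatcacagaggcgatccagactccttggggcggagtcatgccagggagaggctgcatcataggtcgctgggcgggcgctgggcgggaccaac
Nr1d1, chr11:98775378-98775627, minus strand: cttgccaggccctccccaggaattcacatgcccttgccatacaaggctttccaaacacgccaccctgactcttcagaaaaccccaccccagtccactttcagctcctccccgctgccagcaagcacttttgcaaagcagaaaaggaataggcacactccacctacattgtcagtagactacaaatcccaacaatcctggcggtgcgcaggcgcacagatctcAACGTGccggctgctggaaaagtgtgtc

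Per1 has 2 windows, of which the one shown held an E-box 166 to 161 bases before the start and the other held no match. Cry1 had an E-box at 60 to 55 and an E′-box, on the opposite strand and so read as AACGTG, at 79 to 74 bases before the start. An E′-box on the opposite strand stood at 166 to 161 in Cry2 and at 28 to 23 in Nr1d1, a gene that did not pass the test. Positions count from the RefSeq start. For Cry2, Nr1d1, Nr1d2 and Dbp, a stretch of bases just after that start was not found in a GENCODE M21 transcript of the gene. Distances from the start in use may therefore differ for these genes. Per3 held no E-box in this window and 2 D-boxes, both TTATGTAA, at 205 to 198 and at 158 to 151 bases before the start. Of 32851 windows of all genes in the RefSeq table, 7.15% held the E-box, 4.69% the E′-box and 2.32% the D-box. The 9 clock genes had 13 windows in all (3 for Clock, 2 each for Arntl and Per1), and 2 genes held the E-box, 3 the E′-box and 1 the D-box. The shares are of windows and the counts are of genes, so they are not on the same footing. Dbp, Clock and Nr1d2 had none of these letters in their windows, which says nothing of sites elsewhere in those genes.

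Arntl, through which REV-ERB proteins and the activating ROR receptors close the other arm of the loop, held a ROR element 31 to 37 bases after the second of its RefSeq starts, a form present in 2.61% of all windows. A stretch of bases just after this second start was not found in a GENCODE M21 transcript of Arntl. The element is shown in capitals within 30 bases.
Arntl, chr7:113207526-113207555, plus strand: agggaaggcagaaagTAGGTCAgggacgga
TGGGTCA was found in 0 of the 9 genes' windows, and in 3.98% of all windows.

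By annotation, Per2 lies at chr1:91415982-91459324 on the minus strand of GRCm38 (GENCODE M21), Dbp at chr7:45705088-45710203 on the plus strand and Arntl at chr7:113207465-113314126 on the plus strand. Of the 10 identifiers in the table, 6 had the same version as in that release. Exons of Nr1d1 share 263 bases with Thra, a thyroid hormone receptor gene on the opposite strand, and exons of Dbp share 539 bases with Sphk2, a sphingosine kinase gene on the opposite strand. The libraries were stranded, but whether the counting used the strand is not given in the sources used here. Thra was at 38.4 ± 0.951 FPKM in FL islets and at 31.3 ± 2.79 FPKM in KO islets (SD, n = 5; log2 fold change −0.29, adjusted p = 0.00469 from limma). Sphk2 was at 17.9 ± 1.52 and 15.1 ± 1.22 FPKM (log2 fold change −0.23, adjusted p = 0.0329 from limma). Their part in the values of Nr1d1 and Dbp was not tested. Cry2 shares 295 exon bases with D930015M05Rik, at mean levels of 0.146 (FL) and 0.124 (KO) FPKM, far below Cry2.

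KO mice differed from each other more than FL mice did in most of these genes. The coefficient of variation was larger in KO in 9 of the 10 clock genes, all but Cry2, and in 56.6% of all tested genes. For Dbp it was 5.6% in FL and 24.3% in KO, for Per1 6.37% and 18.6%, and for Cry1 1.86% and 6.24%. No test was run on this difference in spread. KO mouse 2 was the highest KO library in 5 of the 6 called genes (Per1, Per2, Cry1, Cry2 and Dbp) and the lowest in Per3. KO mouse 1 was the lowest in 4 of them (Per1, Per2, Cry1 and Cry2), and KO mouse 4 in Dbp. Among tested genes of similar level, the spread of Dbp within groups was at percentile 96.2, that of Per2 at 94.8, that of Nr1d1 at 88.8 and that of Cry1 at 4.19.

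**Figure D4:**
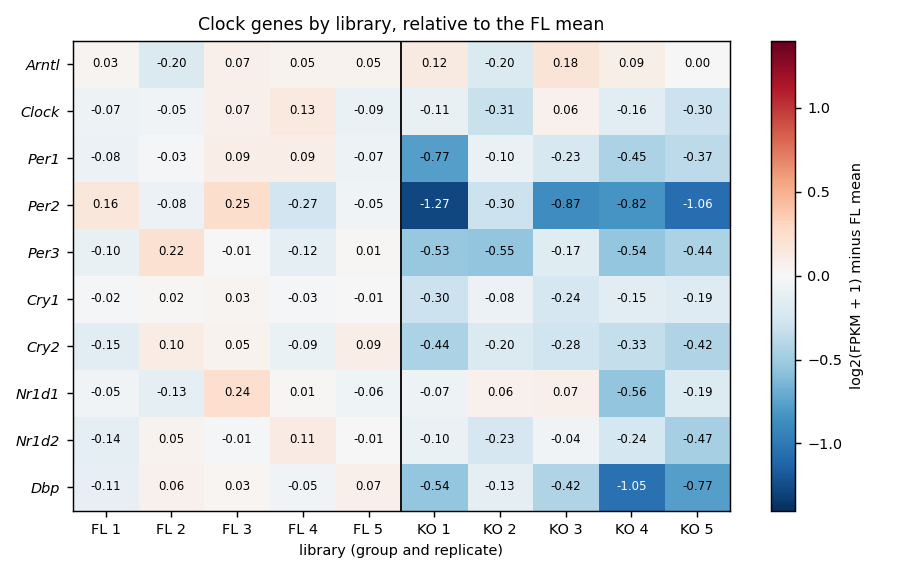
Log2(FPKM + 1) of each clock gene (rows) in each library (columns) minus the mean of the 5 FL libraries, in blue where lower and in red where higher. KO mouse 1 is lowest in Per2 (−1.27) and KO mouse 4 in Dbp (−1.05), while Arntl stays between −0.20 and 0.18 in all 10 libraries.

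Covariation between mice was measured on log2(FPKM + 1) after each gene's group mean had been removed, so that the difference between FL and KO does not enter it. Of the 45 pairs of clock genes, 28 had a positive Pearson's r over the 10 mice, and the median r was 0.24, or 0.05 without KO mouse 3. The median r of single clock genes with the other 13064 tested genes ranged from −0.021 (Arntl) to 0.21 (Dbp). An unadjusted exact permutation p under 0.05 was found for 3 pairs, and 0 of 45 passed after Benjamini-Hochberg adjustment over the pairs (lowest adjusted p = 0.454; lowest for Spearman's rho 0.369). The mice were taken with no stated order in time, and at n = 10 the intervals of such r are wide.

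Per2 and Cry1 had the highest r of all pairs (r = 0.82, rho = 0.66, exact permutation p = 0.0208 and 0.0701, adjusted p = 0.454 and 0.748). Without the 2 mice farthest from the median of Per2, KO mice 1 and 2, r was 0.35, so that this relation rests largely on them. The same holds for Per1 with Per2 (r = 0.68, and −0.09 without KO mice 1 and 2) and for Per1 with Cry1 (r = 0.70, and −0.42 without them). Nr1d1 and Dbp, both known targets of the activator, had an r of 0.79 (rho = 0.44, exact permutation p = 0.0303 and 0.241, adjusted p = 0.454 and 0.748), which was 0.67 without FL mouse 3 and KO mouse 4. Clock and Nr1d2 had an r of 0.75 (rho = 0.70, exact permutation p = 0.0267 and 0.0657, adjusted p = 0.454 and 0.748), and 0.57 without FL mouse 4 and KO mouse 3.

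Arntl and Clock, the partners of the activator, had an r of 0.68 and the highest rho of the pairs, 0.87 (exact permutation p = 0.0518 and 0.00819, adjusted p = 0.492 and 0.369). Their r was 0.85 without mouse 2 of each group. The r of Arntl was below 0 in 6 of its 9 pairs, and none of these passed. It was −0.67 with Cry1 (rho = −0.62, exact permutation p = 0.0638 and 0.134, adjusted p = 0.492 and 0.748) and −0.44 with Per2 (rho = −0.26, exact permutation p = 0.263 and 0.524, adjusted p = 0.790 and 0.838). With Nr1d1 and Nr1d2 it was 0.04 and 0.25. The signs rest on mouse 2 of FL and of KO, since without these mice Cry1 was the only gene below 0 with Arntl (r = −0.41). The r of Arntl then turned from −0.36 to 0.09 with Per1, from −0.44 to 0.13 with Per2, from −0.0087 to 0.52 with Per3, from −0.45 to 0.42 with Cry2 and from −0.41 to 0.60 with Dbp.

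**Figure D5:**
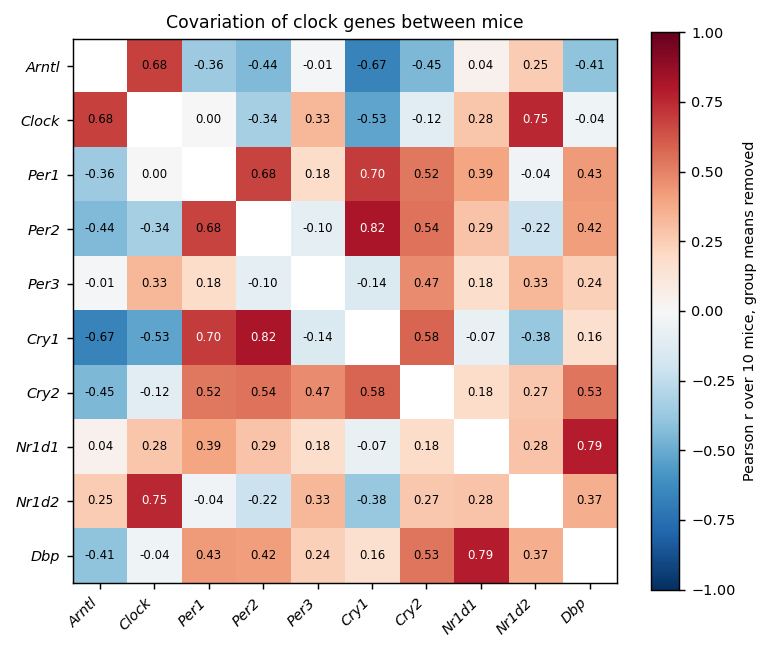
Pearson's r between clock genes over 10 mice on log2(FPKM + 1) with group means removed, in red above 0 and in blue below 0. Per2 with Cry1 (0.82), Nr1d1 with Dbp (0.79) and Clock with Nr1d2 (0.75) are the highest of 45 pairs, and Arntl with Cry1 (−0.67) is the lowest.

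Over the other 13064 tested genes, those most like Arntl between mice were Cdc40 (r = 0.95), Plaa, Med27, Sec61a2 and Ss18, and those least like it were Oas1a (r = −0.94), Rpl29, Krt80, Cox5a and Bak1. For Dbp they were Tm9sf1 (r = 0.97), Bod1, Hsbp1 and Thra at one end and Clec14a (r = −0.93), Tceal7, Klf6, Lpar6 and Gm11808 at the other. No clock gene was among these. These r are the extremes of 13064 and are given with no test.

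Of 13 other genes of the same loops, 10 were tested, 2 were lower and 0 were higher, a share near the 16.5% of all tested genes that were lower. Values below 0 were found for 9 of these 10 and for 8088 of all 13065 tested genes, and the median of the log2 fold changes was −0.11 against −0.06. Tef, a relative of Dbp that binds the same D-box, was at 95.5, 111, 121, 95 and 111 FPKM in FL mice 1 to 5 and at 69.6, 97.5, 87.7, 61.9 and 86.2 FPKM in KO mice 1 to 5. KO mouse 2 was the highest KO library for Tef too, and was above FL mice 1 and 4. The log2 fold change of Tef was −0.42 (SE of 0.12, adjusted p = 0.0291 from limma). Bhlhe41, which encodes the repressor DEC2, fell from 47.2 ± 1.83 to 37.1 ± 6.60 FPKM (SD, n = 5; log2 fold change −0.35, SE of 0.10, adjusted p = 0.0298 from limma), with KO mouse 3 inside the FL range. Both lost their call when FL mouse 2, FL mouse 3, FL mouse 5 or KO mouse 4 was left out (adjusted p = 0.0528 to 0.0712 from limma), Tef also without KO mouse 1 (0.0704) and Bhlhe41 also without KO mouse 5 (0.0551).

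The remaining loop genes did not pass. Hlf, the other relative of Dbp, was at 9.29 ± 1.85 FPKM in FL islets against 7.57 ± 2.68 FPKM in KO islets (SD, n = 5). KO mice 4 and 5 were at 4.67 and 4.86 FPKM. Ciart, which encodes the repressor CHRONO, was at 15.6 ± 1.76 and 13.8 ± 2.73 FPKM, and Bhlhe40 (DEC1) at 36.7 ± 3.49 and 35.1 ± 4.0 FPKM. Rora, which acts on Arntl through the ROR element, was at 16.6 ± 1.96 and 17.7 ± 1.48 FPKM. Nfil3, a repressor at D-boxes, was at 13.5 ± 1.97 and 13.1 ± 0.836 FPKM. Npas2 and Arntl2, close relatives of Clock and Arntl, were below 1 FPKM in the mean of both groups and were not tested, although Arntl2 was at 3.49 FPKM in FL mouse 1. Rorb was not tested either.

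Among enzymes and partners that act on clock proteins, 2 of 16 were lower and 0 were higher, a smaller share than the 16.5% of all tested genes that were lower, and the median of their log2 fold changes was −0.06, as over all tested genes. These were Prkaa1, a catalytic subunit of AMPK, the kinase that marks CRY1 for degradation (34.2 ± 3.71 against 26.1 ± 2.66 FPKM, FL against KO; SD, n = 5; adjusted p = 0.00877 from limma), and Fbxw11, part of the ligase that removes PER (71.8 ± 4.38 and 62.5 ± 1.07 FPKM; adjusted p = 0.0129 from limma). For both genes the groups did not overlap, a pattern that 12.5% of all tested genes shared. Fbxw11 lost its call after quantile normalization (log2 fold change −0.13, adjusted p = 0.0851 from limma). Prkaa2, the other catalytic subunit of AMPK, which is named here after its values were seen, was at 5.27 ± 0.757 and 5.34 ± 0.423 FPKM (log2 fold change 0.02, 95% interval −0.16 to 0.21, adjusted p = 0.881 from limma).

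Genes with a known daily rhythm in several tissues were called in both directions. Of 15 tested, 5 were lower and 3 were higher, beside 16.5% lower and 9.05% higher over all tested genes, and the median of the log2 fold changes was −0.04. The sign of this median was not stable, since it turned to 0.0148 without FL mouse 3, was above 0 under each of the 4 rescalings and with no filter, and ranged from −0.0885 to 0.0196 over the alternatives. Nampt, which encodes the enzyme of NAD salvage, was lower (log2 fold change −0.26, adjusted p = 0.026 from limma), as were Mtss1 (−0.30, 0.00316), Tsc22d3, a glucocorticoid-induced gene (−0.31, 0.00085), and Slc2a2, the glucose transporter of β-cells (−0.70, 0.00211). Cirbp and Rbm3 encode RNA-binding proteins that are both induced by cold, and they moved apart. Cirbp was at 61.9 ± 5.67 FPKM in FL islets and at 53.1 ± 2.87 FPKM in KO islets, and its groups overlapped (adjusted p = 0.0336 from limma). Its call was lost in 13 of 22 alternatives, among them each of the 4 rescalings (adjusted p = 0.0635 to 0.107 from limma) and the fits without FL mouse 2, 4 or 5 or without KO mouse 1, 3, 4 or 5 (0.06 to 0.0794). Rbm3 was at 42.2 ± 6.32 and 58.9 ± 4.25 FPKM (SD, n = 5; adjusted p = 0.00435 from limma). Noct, which encodes the rhythmic protein nocturnin, rose from 4.70 ± 0.197 to 6.24 ± 0.553 FPKM (adjusted p = 0.00234 from limma), and Lonrf3 rose from 2.44 ± 0.252 to 6.97 ± 0.756 FPKM (adjusted p = 2.34e-06 from limma). Nampt lost its call without FL mouse 2, FL mouse 4, KO mouse 2 or KO mouse 4 (adjusted p = 0.0509 to 0.0582 from limma). It also lost its call after quantile normalization (log2 fold change −0.20, adjusted p = 0.0504 from limma) and with the replicate number as a block (−0.26, 0.0546). The count of 5 lower genes was 3 without FL mouse 2, FL mouse 4 or KO mouse 4.

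Per1 is also induced by cAMP, serum and glucocorticoids. Of 13 tested genes on a list of responders to these inputs, 0 were lower and 1 was higher, beside 16.5% and 9.05% over all tested genes. Values below 0, the direction of Per1, were found for 5 of the 13, none of them called, and for 8088 of all 13065 tested genes. The median of the log2 fold changes was 0.03 and ranged from −0.0040 to 0.13 over the alternatives. Tsc22d3, which glucocorticoids also induce and which was lower, was counted with the rhythmic genes and not on this list. The gene that was higher was Jun, an immediate early gene, at 18.5, 16.7, 18.1, 17.5 and 18.3 FPKM in FL mice 1 to 5 and at 25.7, 25.9, 23.4, 25.0 and 28.8 FPKM in KO mice 1 to 5. All KO libraries lay above all FL libraries for Jun (log2 fold change 0.50, SE 0.06, adjusted p = 0.000115 from limma), the opposite direction to Per1. A second gene passed without KO mouse 3, which made the count 2.

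Markers of cell types that islets can hold were counted in the same libraries, where 16.5% of all tested genes were lower and 9.05% higher, and a count of 1 or 2 in lists this short does not stand apart from those shares. Of 8 β-cell markers 6 were lower in KO, and their summed level was 2594 to 3161 FPKM in FL and 1667 to 2428 FPKM in KO, with KO mouse 3 the highest and KO mouse 4 the lowest of the KO group. Of 5 tested α-cell markers 2 were lower (summed level 153 to 167 FPKM in FL and 97.0 to 118 FPKM in KO), with Gcg, the defining one and the sixth on the list, listed at 0 in all 10 libraries. All 5 stellate cell markers were higher (11.7 to 20.1 FPKM in FL and 24.1 to 32.7 FPKM in KO), as were 3 of 6 macrophage markers (131 to 155 and 183 to 223 FPKM) and 3 of 5 endothelial markers (144 to 167 and 160 to 223 FPKM). Of 3 δ-cell markers 1 was lower (4958 to 5850 and 3991 to 5337 FPKM), of 3 tested duct markers 1 was higher (164 to 197 and 144 to 309 FPKM), and of 8 acinar markers 0 were called (4203 to 11138 and 2772 to 20670 FPKM). The PP-cell marker Ppy was not called (2811 to 16923 and 8815 to 12871 FPKM). Fewer cells of a type and less RNA per cell cannot be told apart in whole islets, and the part of cell makeup in the levels of the clock genes was not tested.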

How the data were processed

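RNA of isolated islets from 5 FL and 5 KO mice was sequenced with 1 library per mouse (stranded, single-end). Per the labels and the submitters' processing notes, the authors aligned reads with STAR 2.5.2a and normalized them with Cuffnorm 2.2.1, and deposited FPKM in 1 table that has a column for each mouse. FPKM hold no read numbers, so no counting error is given and replicate spread is the only error. Nothing in the labels says which FL and KO mice were handled together.

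Groups were compared with limma 3.58.1 (R 4.3.3; lmFit, eBayes with trend) on log2(FPKM + 1). The 13065 genes whose FL or KO mean reached 1 FPKM were tested. Fold changes are on that scale, which understates those of low genes. P-values were adjusted by Benjamini-Hochberg over all tested genes and called at 0.05 or less. Exact permutation tests are two-sided. Covariation used exact permutation of mice within groups. The fit was tested on simulated data. Coordinates came from GENCODE M21, sequences from RefSeq. Python 3.11.15 with pandas 2.3.3, numpy 2.4.6, scipy 1.17.1 and matplotlib 3.10.9 was used.

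The 10 genes and the other gene lists were chosen with earlier results of these data known. Apart from cell-type markers, most of which are given only by counts and sums, every called member of the other lists is named. Also named are the 10, a fixed set of loop genes, the 5 most and 5 least like Arntl and Dbp, and Fitm2. The values of 2 of these are not reported here, though both are part of the counts and medians. Thra and Sphk2 were added because their exons overlap those of members. The rhythmic list held 18 symbols, of which Ccrn4l is an older name of Noct. It shares Slc2a2 with the β-cell markers, Nfil3 with the other loop genes and Usp2 with the protein modifiers, so the counts of these lists are not independent. Alternatives were pseudocounts of 0.1 and 0.01, no filter or a minimum of 5 FPKM, 4 rescalings, limma without trend, robust or with sample weights, a 1.5-fold minimum, the replicate number as a block, the exact test, and leaving out each mouse.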

Additional observations from a re-analysis of the deposited data

Results flagged for a closer look

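Within a group of 5 mice, 1 library stood apart from the other 4 by more than Dixon's 95% limit (0.71 of the range) in 5 of 62 groups of the 31 genes examined, where chance gives 3.1 (about 1 in 20). Arntl in FL mouse 2 was at 2.552 FPKM, below the others at 3.185 to 3.293 FPKM. Per3 in KO mouse 3 was at 3.116 FPKM, above the others at 2.164 to 2.406 FPKM. Prkaa1 in FL mouse 4 was at 40.66 FPKM (others 31.32 to 33.54 FPKM). Mtss1 in KO mouse 3 was at 20.49 FPKM (others 16.76 to 17.63 FPKM). Tsc22d3 in FL mouse 4 was at 24.09 FPKM (others 22.03 to 22.6 FPKM).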

How the results depend on the processing

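Per2, Cry2 and Dbp kept their call and direction in every alternative fit without a minimum change, and so did Per3 except with a minimum of 5 FPKM, where it was not tested and 5 clock genes were lower. The number of clock genes called lower was 6 and ranged from 1 to 8 over 23 alternatives (5 to 8 with a mouse left out). A minimum change of 1.5-fold left 1 clock gene (Per2), 0 other loop genes, 0 protein modifiers, 1 rhythmic gene lower and 1 higher, 0 acute genes higher, and 290 genes lower and 349 higher of all tested. The log2 fold change of Dbp was −0.58, just short of that minimum, and past it with a pseudocount of 0.1 (−0.59) or 0.01 (−0.60), and the log2 fold change of Per3 was past it with 0.01 (−0.60), so this count depends on the pseudocount. Per1 lost its call with no filter on low FPKM (−0.38, adjusted p = 0.0554 from limma) and after rescaling to the same sum (−0.35, 0.0504). With a mouse left out the log2 fold change ranged from −0.45 to −0.28 for Per1, from −0.012 to 0.098 for Arntl, from −0.22 to −0.13 for Clock, from −0.19 to −0.034 for Nr1d1 and from −0.26 to −0.15 for Nr1d2. Cry1 lost its call after upper-quartile rescaling (−0.14), quantile normalization (−0.14) and rescaling to the same sum (−0.15). The cause was not tested. Nr1d2 passed at 0.05 by the exact permutation test, which is not adjusted (−0.22, p = 0.0397).

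The count of other loop genes lower was 0 with no filter, 1 after rescaling to the same sum, and 0 to 2 with a mouse left out. Rhythmic genes lower were 3 to 6 with a mouse left out. Sample weights in limma gave 1 acute gene lower and 2 higher, and leaving out a mouse gave 1 to 2 higher. Nfil3 turned to a value above 0 under median-ratio (0.0099), upper-quartile (0.0108), quantile (0.0196) and same-sum (0.0056) scaling, and ranged from −0.0885 to 0.0166 with a mouse left out. The r of Arntl with Per2 turned without KO mouse 2 (0.21) or the 2 farthest mice (0.13), that of Arntl with Dbp without KO mouse 2 (0.19) or those mice (0.60), and that of Per2 with Dbp without KO mouse 2 (−0.25) or the 2 farthest mice (−0.068). With a mouse left out these r ranged from −0.64 to 0.21, from −0.59 to 0.19 and from −0.25 to 0.67. The median r of the 45 pairs ranged from 0.05 to 0.30. Of all tested genes 2150 were lower and 1183 higher (35.5% of calls higher), and after median-ratio rescaling 1685 and 1544 (47.8%).

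Samples with the same replicate number had correlations of −0.10 to 0.00 of their deviations from the group means. These values show no pairing of FL with KO mice by number. They cannot exclude it, since mice of a litter or handled together need not correlate over all genes. With the number as a block 1494 genes were lower and 874 higher, 3 rhythmic genes were lower, Cry1 had a log2 fold change of −0.19 (adjusted p = 0.051 from limma), and the r of Arntl with Dbp was 0.34.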
